A study of Mus musculus with 6 samples.

Results

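The genes of the proteasome were examined together with Nfe2l1 in mucosa scraped from the jejunum of ISR2 mice and of their wild type littermates. ISR2 is a transgenic C57/BL line in which SREBP2, the transcription factor that drives cholesterol synthesis and uptake, is overactive in the intestine, per the series title and the labels. The sources used here do not give the construct or its promoter. Both groups were 8 to 10 weeks old and ate regular chow, and each was measured on 3 arrays. Whether the arrays of a group came from separate mice is not stated in the labels, so the spread behind each p-value may be technical. The members were every row of the array annotated with exactly 1 gene symbol made of Psma, Psmb, Psmc, Psmd, Psme, Psmf or Psmg and digits, plus Nfe2l1 and the enzymes Ddi2 and Ngly1. This gave 50 genes of the 19938 tested, namely 48 Psm genes, Nfe2l1 and Ngly1; Ddi2 was not analysed here. The only measured value used in choosing rows was the mean over the 6 arrays, which picked 1 row for each of the 5 members that had several.

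The proteasome is the protease that degrades proteins tagged with ubiquitin. Its core particle, called 20S, is a barrel with outer rings of alpha subunits and inner rings of beta subunits, of which Psmb5, Psmb6 and Psmb7 carry the constitutive active sites. The regulatory particle, called 19S, sits on the ends of the barrel, and its ATPases (Psmc genes) and other subunits (most Psmd genes) bind, unfold and feed in substrates. Immune cells, and other cells exposed to interferon gamma, swap the constitutive active subunits for Psmb8, Psmb9 and Psmb10, which gives the immunoproteasome. Nfe2l1 encodes a transcription factor, also known as Nrf1 or TCF11, that is made as a glycoprotein in the endoplasmic reticulum. It is pulled out by the ATPase Vcp, stripped of its sugars by Ngly1 and cut by the protease Ddi2, and it then activates proteasome genes when proteasome activity is low. In liver the same protein has been described as a sensor of excess cholesterol in the endoplasmic reticulum.

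The tissue and genotype labels were checked first. All 12 enterocyte markers lay at or above the 97.8 percentile of mean level. Srebf2 was 3.43-fold higher in ISR2 mucosa and its target Insig1 10.4-fold higher (limma, adjusted p = 0.000298 and 8.22e-07). Array medians over all rows lay between 6.04 and 6.19 on the log2 scale. Of the 19938 genes 602 (3.02%) were below 0.05 after Benjamini-Hochberg adjustment of limma's p-values over all of them, and a gene is said below to have risen or fallen only where it passed. Smooth muscle and stroma markers set the arrays apart within both groups. Their mean log2 level was 7.19, 9.57 and 7.69 in wild type replicates 1, 2 and 3 and 7.90, 8.94 and 7.87 in ISR2 replicates 1, 2 and 3.

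Nfe2l1 rose 4.01-fold in ISR2 mucosa, while none of the 48 Psm genes rose. Of the 50 members 1 rose and 2 fell, or 3 in all, against background shares of 1.79% of genes that rose and 1.23% that fell. The members that fell were Psmb8 and Psmb10, catalytic subunits of the immunoproteasome. The median log2 change was 0.11 over the Psm genes and -0.06 over all genes tested. The 3 ISR2 arrays all lay above the 3 wild type arrays in 6 members and all below them in 4, and among all genes in 5.87% and 13.9%. Together these 10 of 50 are close to the 19.8% of all genes whose groups did not overlap. The members were mostly bright, however, with a median percentile of mean level of 88.9. Of the 4985 genes at or above the 75 percentile, 214 rose and 135 fell. The groups did not overlap in 28.3% of those 4985 genes, a larger share than the 20% of members.

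**Figure D1:**
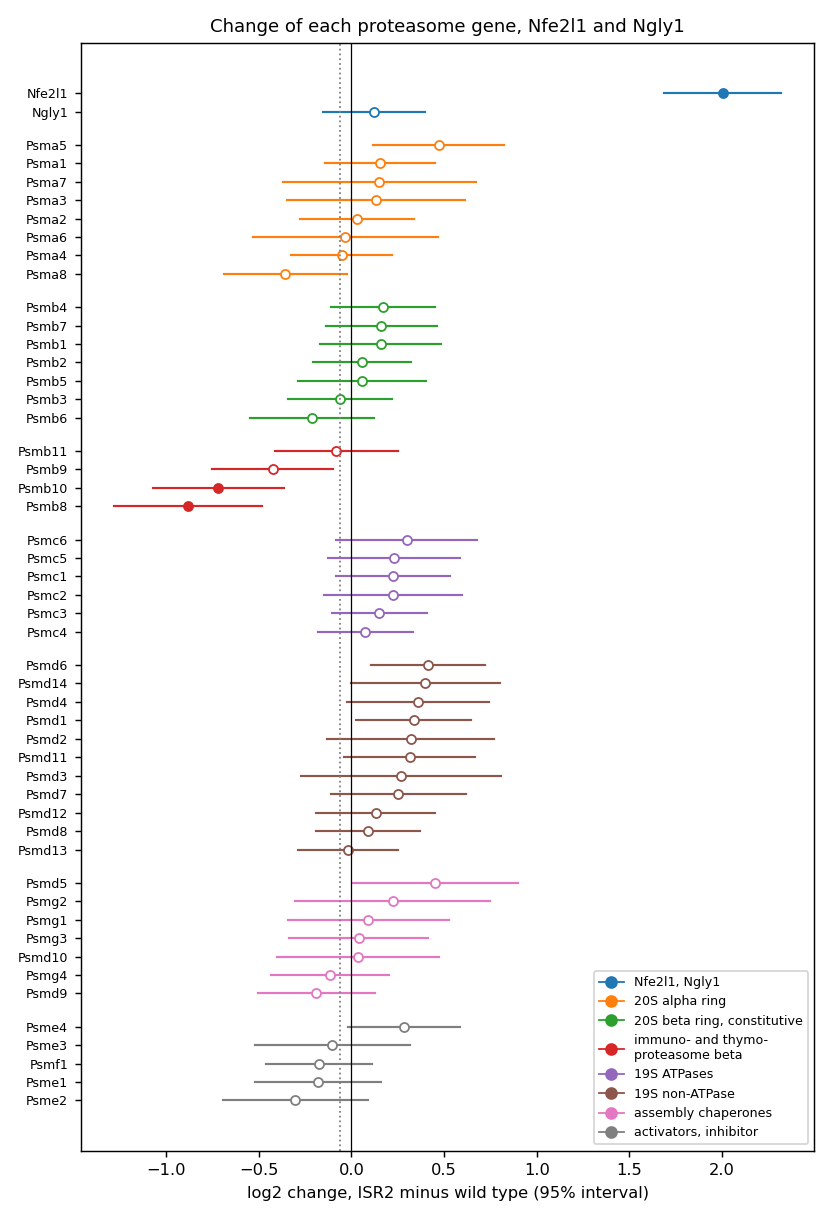
Log2 change between ISR2 and wild type for each of the 50 members, grouped by role; points are fitted changes, lines their 95% intervals, filled points passed the adjusted p threshold of 0.05, and the dotted line is the median of all genes, -0.06. Nfe2l1 lies at 2.00, far to the right of every Psm gene, and Psmb8 and Psmb10 lie lowest at -0.88 and -0.72.

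Nfe2l1 stood at 8.23, 8.23 and 8.49 on the log2 scale in wild type replicates 1, 2 and 3. In ISR2 replicates 1, 2 and 3 it stood at 10.48, 10.17 and 10.31. The lowest ISR2 array was therefore above the highest wild type array by far more than the range within either group. The log2 change was 2.00 ± 0.14 (SE, 3 arrays per group; 95% interval 1.69 to 2.32), with an adjusted p of 6e-05 in limma. By size it ranked 65 among the 356 genes that rose. Its adjusted p was 0.000972 at most when 1 array at a time was left out, and the log2 change then ran from 1.92 to 2.09. An array of this kind measures the transcript and not the cut, nuclear form of the protein.

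Ngly1, which removes the sugars from the Nfe2l1 protein, did not pass. It stood at 8.10, 7.86 and 7.92 in wild type replicates 1, 2 and 3 and at 8.09, 8.11 and 8.06 in ISR2 replicates 1, 2 and 3, so the groups overlapped. The log2 change was 0.12 ± 0.12 (SE; adjusted p = 0.757 in limma; 95% interval -0.15 to 0.40).

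The promoters below are shown because Nfe2l1 acts through short DNA elements near such starts, and because these are the genes on which the comparison turns. They are RefSeq windows on GRCm38.p6, 250 bases before to 50 bases after a transcript start, written 5′ to 3′ along the gene. Capitals mark matches to TGACNNNGC, the core of the antioxidant response element that Nfe2l1 and its relatives bind; the search covered both strands. Nfe2l1 itself has 5 starts in the table, of which the outermost is printed. Psmb8 and Psmb10 are the subunits that fell; Psmb5 and Psmb6 are constitutive catalytic subunits, which did not pass.
Nfe2l1, chr11:96829919-96830218, minus strand: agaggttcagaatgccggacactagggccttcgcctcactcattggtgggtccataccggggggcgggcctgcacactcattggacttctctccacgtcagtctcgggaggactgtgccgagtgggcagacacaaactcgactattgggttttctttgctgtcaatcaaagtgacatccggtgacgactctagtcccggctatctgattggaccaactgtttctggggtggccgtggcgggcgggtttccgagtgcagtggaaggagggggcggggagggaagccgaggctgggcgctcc
Psmb8, chr17:34197945-34198244, plus strand: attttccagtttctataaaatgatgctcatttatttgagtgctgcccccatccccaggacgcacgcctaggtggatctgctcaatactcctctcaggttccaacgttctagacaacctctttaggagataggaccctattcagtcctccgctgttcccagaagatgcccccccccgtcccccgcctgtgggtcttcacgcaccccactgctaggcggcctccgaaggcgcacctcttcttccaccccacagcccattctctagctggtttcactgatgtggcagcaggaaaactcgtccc
Psmb10, chr8:105938343-105938642, minus strand: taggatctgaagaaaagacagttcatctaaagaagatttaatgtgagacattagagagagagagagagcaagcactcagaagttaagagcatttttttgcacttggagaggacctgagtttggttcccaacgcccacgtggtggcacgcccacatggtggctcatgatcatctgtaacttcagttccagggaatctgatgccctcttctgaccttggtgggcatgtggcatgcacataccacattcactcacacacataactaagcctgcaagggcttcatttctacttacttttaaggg
Psmb5, chr14:54617946-54618245, minus strand: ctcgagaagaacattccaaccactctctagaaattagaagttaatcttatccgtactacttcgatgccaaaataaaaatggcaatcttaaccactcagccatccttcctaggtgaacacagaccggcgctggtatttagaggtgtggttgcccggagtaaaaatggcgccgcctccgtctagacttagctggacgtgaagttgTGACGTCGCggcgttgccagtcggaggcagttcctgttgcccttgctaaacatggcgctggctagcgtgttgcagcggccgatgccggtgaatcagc
Psmb6, chr11:70525107-70525406, plus strand: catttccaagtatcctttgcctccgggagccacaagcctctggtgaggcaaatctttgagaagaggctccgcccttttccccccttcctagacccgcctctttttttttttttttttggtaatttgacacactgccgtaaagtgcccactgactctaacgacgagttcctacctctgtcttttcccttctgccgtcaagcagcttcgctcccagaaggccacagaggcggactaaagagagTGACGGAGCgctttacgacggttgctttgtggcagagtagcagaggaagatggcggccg
The matches were TGACGTCGC in Psmb5, which begins 47 bases before the start, and TGACGGAGC in Psmb6, which begins 9 bases before it. The printed windows of Nfe2l1, Psmb8 and Psmb10 hold no capitals, which says only that these letters do not occur there.

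Over all members, 42 of 50 had a promoter in the table. Of these 42, 6 held TGACNNNGC (14.3%), against 15.2% of the 15614 tested genes with a promoter there, so the share was near the background. Besides Psmb5 and Psmb6 they were Psmc6 (GCTAAGTCA), Psmd12 (GCTGTGTCA), Psmd9 (TGACCCCGC) and Psme4 (GCAGCGTCA). Where such a match starts with GC, the element lies on the opposite strand. None of the 6 passed the test for a change, and their measured log2 changes were 0.06, -0.21, 0.30, 0.13, -0.19 and 0.28 in the order named. The sterol regulatory element core TCACNCCAC, searched on both strands, was in 0 of the 42 and in 1.4% of all genes. The core of the interferon-stimulated response element (GAAA, any 2 bases, GAAA), searched on both strands after the values of Psmb8 and Psmb10 were seen, was in 5 of the 42 (11.9%) and in 3.89% of all genes. Those 5 were Psmb3, Psmd4, Psmd9, Psme1 and Psmg4, and none of them was an immunoproteasome subunit.

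Among the relatives and regulators of Nfe2l1, 1 of 16 measured genes rose and 0 fell (median log2 change 0.06). The gene that rose was Nfe2, which encodes the founding factor of the same family, best known from red cell and platelet precursors. It stood at 5.32, 5.45 and 5.38 in wild type replicates 1, 2 and 3 and at 7.72, 7.92 and 8.09 in ISR2 replicates 1, 2 and 3. All ISR2 arrays were higher, with a log2 change of 2.53 ± 0.14 (SE; adjusted p = 1e-05 in limma) from a wild type level not shown to be above background, so no fold is given. The red cell genes Alas2 and Slc4a1, measured beside it, had log2 changes of 0.01 and 0.04, and neither passed. Both were dim (5.47 and 5.65 in wild type, the 30.5 and 34.7 percentiles of mean level) and likewise not shown to be above background. Nfe2l2, the stress-responsive relative, stood at 10.55 in wild type and 10.30 in ISR2 (log2 change -0.25 ± 0.14, SE; adjusted p = 0.508). Nfe2l3 had a log2 change of 0.14 (adjusted p = 0.748, limma). Mafg, a small Maf protein that pairs with these factors on DNA, was higher in all 3 ISR2 arrays without passing (0.34 ± 0.12, SE; adjusted p = 0.25). Ogt, which modifies proteins with N-acetylglucosamine, was lower in all 3 without passing (-0.36 ± 0.15, SE; adjusted p = 0.333).

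**Figure D2:**
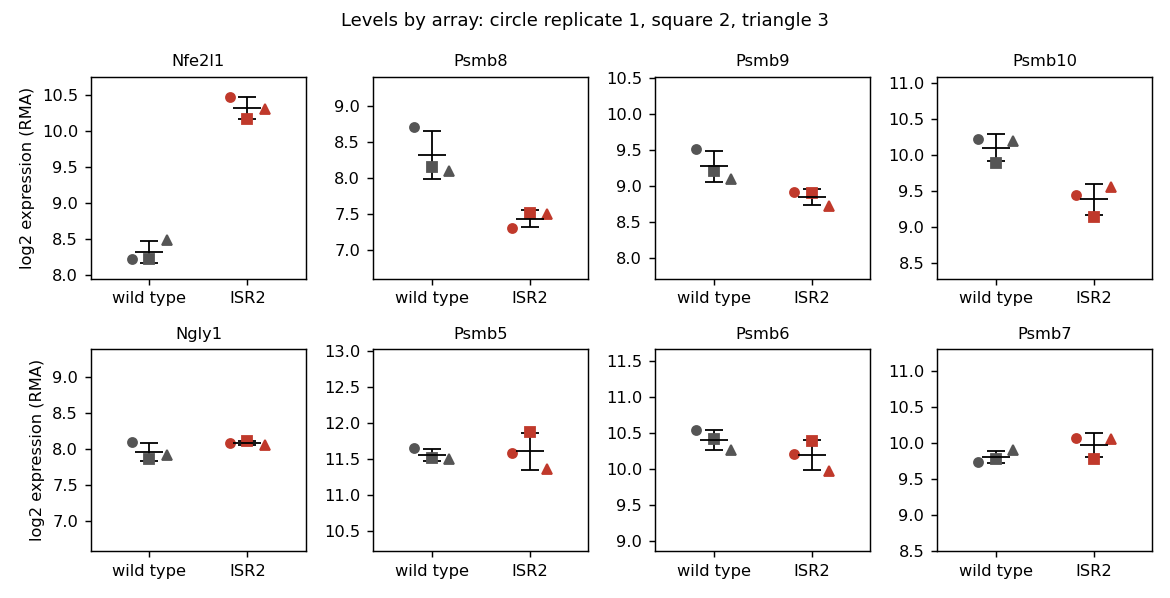
Log2 expression of 8 genes on each array, with wild type in grey and ISR2 in red; bars are means ± SD over 3 arrays, and every panel spans the same range of log2 units. Nfe2l1 is higher on all 3 ISR2 arrays, Psmb8, Psmb9 and Psmb10 are lower on all 3, and the groups overlap for Ngly1, Psmb5, Psmb6 and Psmb7.

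The Psm genes with the largest measured changes, Psmb8 and Psmb10, are catalytic subunits of the immunoproteasome. Psmb8, which replaces Psmb5, stood at 8.70, 8.15 and 8.10 in wild type replicates 1, 2 and 3. In ISR2 replicates 1, 2 and 3 it stood at 7.30, 7.51 and 7.50. The groups did not overlap, although wild type replicate 1 was well above the other wild type arrays. Psmb8 fell 1.84-fold, a log2 change of -0.88 ± 0.18 (SE, 3 arrays per group), with an adjusted p of 0.0306 in limma. Psmb10, which replaces Psmb7, stood at 10.22, 9.88 and 10.20 in wild type and at 9.44, 9.14 and 9.56 in ISR2 replicates 1, 2 and 3. Every ISR2 array was below every wild type array, and Psmb10 fell 1.64-fold, a log2 change of -0.72 ± 0.16 (SE) with an adjusted p of 0.0462 in limma. Psmb9, which replaces Psmb6, stood at 9.51, 9.21 and 9.11 in wild type and at 8.92, 8.91 and 8.72 in ISR2. It was lower on all 3 ISR2 arrays too without passing, at -0.42 ± 0.15 (SE, log2 change) and an adjusted p of 0.23 in limma. The 4 members whose groups did not overlap downward were these and Psma8.

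These falls were close to the threshold. Psmb8 no longer passed without wild type replicate 1 or 2 or without ISR2 replicate 1, 2 or 3 (adjusted p up to 0.152), and Psmb10 no longer passed when any 1 of the 6 arrays was left out (adjusted p from 0.0535 to 0.21). With every row of the array tested, neither passed (adjusted p = 0.0928 and 0.119), and with each array centred on its median Psmb10 did not (adjusted p = 0.0939). Their log2 changes ran from -1.03 to -0.69 for Psmb8 and from -0.83 to -0.55 for Psmb10 over the 16 alternatives.

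The constitutive counterparts did not pass. Psmb5 stood at 11.66, 11.52 and 11.50 in wild type and at 11.59, 11.88 and 11.37 in ISR2 replicates 1, 2 and 3, a log2 change of 0.06 ± 0.15 (SE; adjusted p = 0.927) whose sign turned to -0.08 without ISR2 replicate 2. Psmb6 was at -0.21 ± 0.15 (SE; adjusted p = 0.623) and Psmb7 at 0.16 ± 0.13 (SE; adjusted p = 0.693). The groups overlapped for each of Psmb5, Psmb6 and Psmb7. Within arrays, the log2 ratio of Psmb8 to Psmb5 was 0.94 lower in ISR2 than in wild type on average, with all 3 ISR2 arrays (-1.05, -1.14 and -0.63 from the wild type mean) below the wild type arrays (0.28, -0.13 and -0.16). The ratio of Psmb10 to Psmb7 was 0.88 lower, again without overlap. The ratio of Psmb9 to Psmb6 was 0.21 lower, with ISR2 arrays at -0.16, -0.35 and -0.13 and wild type arrays at 0.10, -0.07 and -0.02. These ratios show unequal change and were not tested. The remaining member of this group, the thymus subunit Psmb11, was dim (5.44 in wild type, the 28.8 percentile of mean level), with a log2 change of -0.08.

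Genes of antigen presentation and the interferon response, many of which are induced together with the immunoproteasome, were mixed. Of 15 measured genes of MHC class I antigen processing and the interferon response, 1 rose and 1 fell, and the median log2 change was -0.16. Irf1, a transcription factor that activates Tap1 and Psmb9, stood at 9.46, 9.30 and 9.54 in wild type and at 8.79, 8.74 and 8.86 in ISR2 replicates 1, 2 and 3. All ISR2 arrays were lower, and Irf1 fell by 0.64 (SE 0.12; adjusted p = 0.0274 in limma). It no longer passed when any 1 of the 6 arrays was left out (adjusted p up to 0.128). Stat2, a signal carrier of type I interferon, rose 2.41-fold (1.27 ± 0.15, SE; adjusted p = 0.0021), from 8.21, 8.45 and 8.14 to 9.78, 9.47 and 9.35. Tap1, a peptide transporter whose gene lies between Psmb9 and Psmb8 on chromosome 17, was lower on all 3 ISR2 arrays without passing (-0.46 ± 0.14, SE; adjusted p = 0.159). Of the activators of the core that interferon gamma also induces, Psme1 was at -0.18 ± 0.15 and Psme2 at -0.30 ± 0.17 (SE), and neither passed (adjusted p = 0.695 and 0.528).

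Immunoproteasome subunits are abundant in lymphocytes, so markers of the cell types in the scrapings are given beside them. Among all genes, 12473 of 19938 had a log2 change below 0. Of 12 measured markers of T cells and intraepithelial lymphocytes 5 fell and 0 rose, and 11 of the 12 were lower. Their mean log2 level was 7.6, 7.53 and 7.21 in wild type replicates 1, 2 and 3 and 6.78, 6.83 and 6.39 in ISR2 replicates 1, 2 and 3. The wild type arrays thus ran from 7.21 to 7.6 and the ISR2 arrays from 6.39 to 6.83, without overlap between the groups. Within ISR2, replicate 3 was lowest for this list and highest for the mean of Psmb8, Psmb9 and Psmb10. That mean differed little within ISR2, at 8.55, 8.52 and 8.59 in replicates 1, 2 and 3. Within wild type, replicate 1 was highest for both, and the mean of the 3 subunits was 9.48, 9.08 and 9.14. Among the T cell markers, Cd3e was lower by a log2 change of -1.08 and Cd8a by one of -0.91 (adjusted p = 0.00889 and 0.0221 in limma). Cd3d, Cd8b1 and Cd2 did not pass, at -0.33, -0.26 and 0.004 (adjusted p = 0.532, 0.675 and 0.995 in limma). These were dim, at the 28.5, 32.4 and 23.2 percentiles of mean level. None of the markers was listed at a level of 0, and no detection call was used here. Of 8 B and plasma cell markers 8 were lower and 0 passed, with list means of 6.83 to 7.14 in wild type and 6.24 to 6.93 in ISR2. Of 9 myeloid markers 7 were lower and 1, Cd14, rose (log2 change 1.16). Of 7 Paneth and goblet cell markers 7 were lower and 0 passed. Their list means were 11.86 to 12.21 in wild type and 11.46 to 11.83 in ISR2. Of the 12 enterocyte markers 9 were lower and 1, Alpi, fell (log2 change -0.77). Their list means were 12.73 to 12.80 in wild type and 12.42 to 12.58 in ISR2. For both of these lists, too, the groups did not overlap. The part of these cell types in the falls of Psmb8 and Psmb10 was not tested, and in such scrapings fewer cells of a type and less RNA per cell cannot be told apart.

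**Figure D3:**
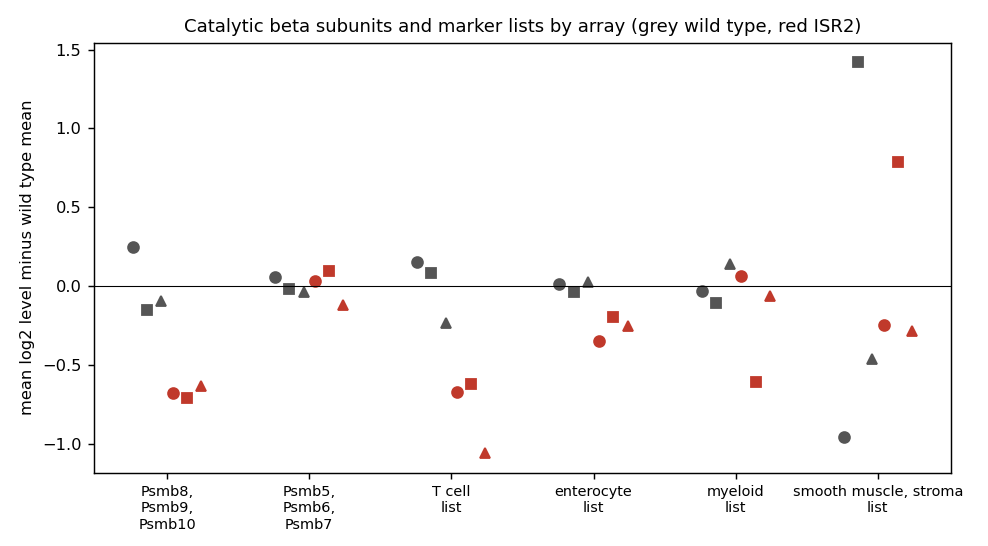
Mean log2 level of each gene set on each array, as a difference from its wild type mean; grey points are wild type, red points ISR2, and circle, square and triangle are replicates 1, 2 and 3. The sets are Psmb8 to Psmb10, Psmb5 to Psmb7 and 4 marker lists. The red points of Psmb8, Psmb9 and Psmb10 all lie below their grey points, as do those of the T cell list and the enterocyte list. Those of Psmb5, Psmb6 and Psmb7 and of the myeloid list overlap their grey points. The smooth muscle and stroma list differs more within groups than between them.

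No alpha subunit and no constitutive beta subunit of the core barrel passed. Of the 8 alpha subunits 0 passed (median log2 change 0.08, range -0.36 to 0.47), and of the 7 constitutive beta subunits 0 passed (median 0.06, range -0.21 to 0.17). Without ISR2 replicate 2 these medians were -0.051 and 0.028, and without ISR2 replicate 3 they were 0.15 and 0.12. Psma5 had the largest measured difference of any Psm gene upward. It stood at 9.02, 9.11 and 8.81 in wild type and at 9.38, 9.72 and 9.25 in ISR2 replicates 1, 2 and 3, without overlap, a log2 change of 0.47 ± 0.16 (SE; adjusted p = 0.217 in limma). A dimmer row of the same gene gave 0.42, with groups that overlapped. Psma8, the alpha subunit of the testis, was lower on all 3 ISR2 arrays (-0.36 ± 0.15, SE; adjusted p = 0.339), at 5.17 in wild type, the 21.1 percentile of mean level and not shown to be above background.

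In the regulatory particle 0 of 17 subunits passed, and most measured changes were small and positive. Of its 17 subunits 16 had a log2 change above 0, against 37.4% of all genes and 41.7% of the 4985 genes in the upper part of the intensity range (at or above the 75 percentile of mean level). The median was 0.22 for the 6 ATPases, all of them above 0, and 0.31 for the 11 other subunits. Psmd6, a subunit of the lid, had the largest difference. It stood at 8.45, 8.58 and 8.73 in wild type and at 8.88, 8.96 and 9.16 in ISR2 replicates 1, 2 and 3. The groups did not overlap, and the log2 change was 0.41 ± 0.14 (SE; adjusted p = 0.213 in limma). Psmd14, the deubiquitinase that removes ubiquitin from substrates, was at 0.40 ± 0.18 (SE; adjusted p = 0.386), and Psmd4, a ubiquitin receptor, was at 0.36 ± 0.17 (SE; adjusted p = 0.425). Psmd1, a scaffold of the base, was higher on all 3 ISR2 arrays (0.34 ± 0.14, SE; adjusted p = 0.335), as was Psmc3 (0.15 ± 0.11, SE; adjusted p = 0.657). Psmc4, another ATPase, was at 0.08, and Psmd13, the exception in sign, at -0.02, which turned positive without wild type replicate 1 (0.02), without ISR2 replicate 1 (0.02) and with median centring (0.03). Psmc6 had the largest difference of the ATPases, 0.30 ± 0.17 (SE; adjusted p = 0.525), which was 0.13 without ISR2 replicate 2.

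**Figure D4:**
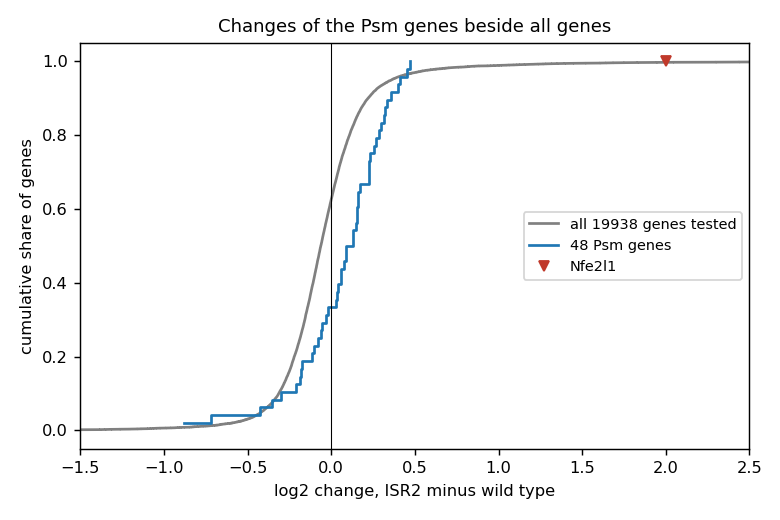
Cumulative share of genes by log2 change between ISR2 and wild type, for the 48 Psm genes (blue) and all 19938 genes tested (grey); the axis is cut at -1.5 and 2.5, and the red mark is Nfe2l1. The blue curve lies to the right of the grey one over most of its length, with medians of 0.11 and -0.06, and ends far short of Nfe2l1.

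Assembly factors and regulators of the proteasome were likewise not called. Of 7 assembly chaperones 0 passed, with a median log2 change of 0.04. Psmd5, which helps to assemble the base, was at 7.16, 7.18 and 7.78 in wild type and at 7.91, 7.55 and 8.01 in ISR2 replicates 1, 2 and 3, with overlapping groups and a log2 change of 0.45 ± 0.20 (SE; adjusted p = 0.376 in limma). Psmd9, another chaperone of the base, was at -0.19, and Psmg1, Psmg2, Psmg3 and Psmg4, which build the alpha ring, ranged from -0.11 to 0.22. Of the 5 activators and inhibitors 0 passed, and 4 were below 0. The exception was Psme4, an ATP-independent activator of the core, which was higher on all 3 ISR2 arrays (0.28 ± 0.13, SE) with an adjusted p of 0.417 in limma. Psmf1, the inhibitor, was at -0.17.

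The intervals show which sizes the data leave room for. For the 48 Psm genes the highest upper bound of a 95% interval was 0.90, for Psmd5, and 0 of the 48 reached a log2 change of 1, a doubling. Downward, the intervals of Psmb8 and Psmb10 reached -1.28 and -1.07. Of the 48, 4 had an interval wholly above 0 and 4 wholly below it. An unadjusted p under 0.05 was reached upward by 4 Psm genes and downward by 4, against 4.73% and 8.40% of all genes. In 41 of the 48 the change was smaller than the wider of the ranges within the groups. Differences of this size could be missed with 3 arrays per group. In simulated data with 19938 genes, the test recovered 10% of genes given a log2 change of 0.5 and 72% of those given 1. The simulation changed only 50 genes at each size and gave 144 calls, against 602 in the data. A call there needed a smaller unadjusted p, so these rates need not hold for the data.

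Factors that work with the proteasome or feed it were also examined as lists. Of 15 measured proteasome-associated factors 0 passed (median 0.04). The nearest were Ecpas, a scaffold that tethers the core to the regulatory particle, at 0.51 ± 0.16 (SE; adjusted p = 0.174), and Txnl1, a thioredoxin-like protein of the regulatory particle, at 0.37 ± 0.12 (SE; adjusted p = 0.182), each higher on all 3 ISR2 arrays. Akirin2, which carries proteasomes into the nucleus, was lower on all 3 (-0.24 ± 0.12, SE; adjusted p = 0.454). Pomp, which helps the core to mature, was at 0.11 ± 0.16 (SE; adjusted p = 0.854). Of 22 genes of Vcp and degradation from the endoplasmic reticulum 0 passed (median -0.03). Vcp, the ATPase that extracts Nfe2l1 from the membrane, was at 0.39 ± 0.20 (SE; adjusted p = 0.464), and Derl1, a channel component, and Syvn1, a ubiquitin ligase, were lower on all 3 ISR2 arrays (-0.31 ± 0.11 and -0.26 ± 0.12, SE; adjusted p = 0.273 and 0.408). Of 3 measured genes of ubiquitin and its activating enzymes 0 passed, with Uba3 at -0.16, Uba6 at 0.11 and Nae1 at 0.11. Of 9 subunits of the COP9 signalosome, a complex related to the lid of the regulatory particle, 0 passed and the median was -0.03; Cops7b was at -0.33, Cops2 at 0.30 and Cops5 at 0.20.

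The members also differed between arrays of the same genotype. ISR2 replicates 2 and 3 differed by at least 0.5 on the log2 scale in 15 of the 50 members and in 4014 of all 19938 genes, with core and regulatory genes on opposite sides. Psma7, an alpha subunit, stood at 10.42 in ISR2 replicate 2 and at 9.55 in replicate 3. Psmd3, a lid subunit, stood at 8.31 in replicate 2 and at 9.08 in replicate 3. Of the 8 alpha subunits 2 were higher in replicate 3 than in replicate 2, of the 7 constitutive beta subunits 1, of the 6 ATPases 5 and of the 11 other subunits of the regulatory particle 10. Wild type replicate 3 differed from the mean of wild type replicates 1 and 2 in the same direction in 47 of the 50 members (94%), compared with 67.6% of all genes. Across the 50 members, which share arrays and are not independent replicates, Pearson's r between these differences was 0.87, and across all genes it was 0.57. The arrays compared were chosen after the data were seen. Psmd14 and Psmc6 were exceptions among the regulatory particle, and were higher in ISR2 replicate 2 than in replicate 3 (10.57 against 9.95 and 9.49 against 8.94). The mean of the smooth muscle and stroma list was highest in replicate 2 of both groups, as given above. Within ISR2 this held for the genes Acta2, Myh11, Des, Tagln, Actg2 and Cnn1. Col1a1, Col1a2, Col3a1 and Pdgfra were instead lowest in ISR2 replicate 2, and Dcn lay between its values in replicates 1 and 3. The mean log2 level of the non-ATPase subunits was 8.84, 8.84 and 9.07 in wild type replicates 1, 2 and 3. In ISR2 replicates 1, 2 and 3 it was 9.17, 9.04 and 9.32. The part of smooth muscle and stroma cells in the differences was not tested. Nfe2l1 differed by 0.14 between ISR2 replicates 3 and 2, a small part of its difference between the groups.

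**Figure D5:**
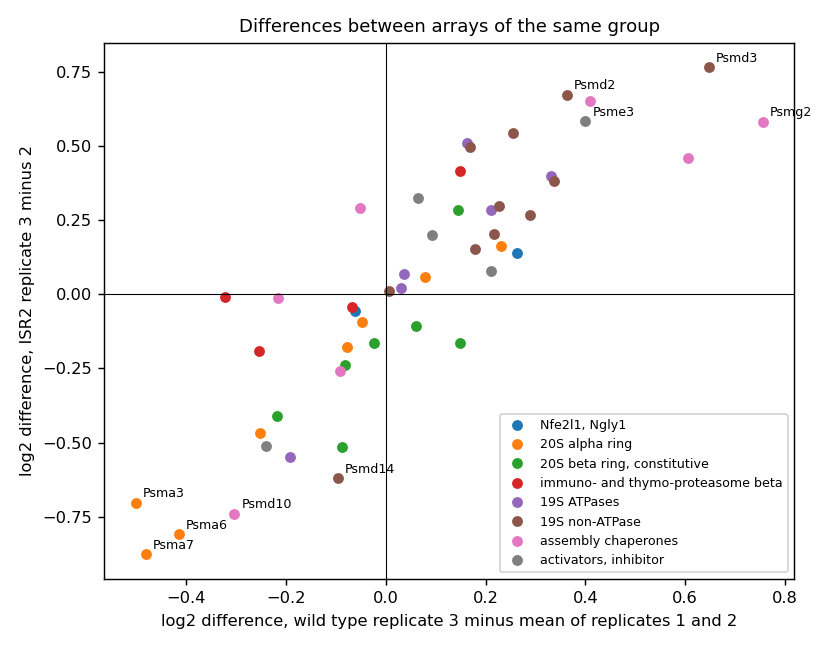
Each point is 1 of the 50 members, coloured by role; the horizontal axis is the log2 difference of wild type replicate 3 from the mean of wild type replicates 1 and 2, and the vertical axis that of ISR2 replicate 3 from ISR2 replicate 2. Alpha subunits such as Psma7 lie at the lower left and regulatory subunits such as Psmd3 at the upper right, with r = 0.87 over 50 genes.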

How the data were processed

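Biotin-labelled total RNA was hybridised after the Affymetrix WT protocol, per the labels' protocols. The deposited table holds log2 values from RMA; the authors' use of RMA is known per the submitters' processing notes, and the log2 scale was inferred from values of 1.44 to 14.8. No source used here names its version or a filter. RMA equalises arrays, so a change shared by most genes is removed, and background left after it compresses changes of dim genes.

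Of 35556 rows the annotation gave 1 symbol to 21789, several to 1621 and none to 12146. Genes were rows with 1 symbol. A gene with several rows was represented by its brightest row (mean of all 6 arrays), which left 19938 genes. No filter on dim genes was applied. A filter at the 25 percentile, tried as an alternative, kept 49 of the 50 members and left out Psma8. ISR2 was compared with wild type by lmFit and eBayes (limma 3.58.1, R 4.3.3; no trend, not robust), with Benjamini-Hochberg adjustment of two-sided p-values across all genes. Lists are described by counts and medians only. The members and lists were chosen with earlier results of these data known. Genes of a list without a row of 1 symbol were not analysed here.

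The rule for naming genes took Nfe2l1 and Ngly1, the called members, the 3 largest changes each way, the catalytic subunits, the extremes of each role, and up to 3 genes of each list by smallest p. Other named genes were chosen after their values were seen. Promoters came from RefSeq windows on GRCm38.p6. The fit was tested on simulated data. Alternatives were eBayes with trend or robust, array weights, median centring, quantile normalization, the filter, the mean of a gene's rows, all rows tested, the replicate block, a threshold of 0.10, each array left out, and wild type replicate 3 left out together with ISR2 replicate 2. Figures used matplotlib 3.10.9 in Python 3.11.15.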

Additional observations from a re-analysis of the deposited data

How the results depend on the processing

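Nfe2l1 rose under all 16 alternatives to the fit (log2 change 1.92 to 2.16). The count of members that rose was 1 except on the 4 arrays left after wild type replicate 3 was dropped together with ISR2 replicate 2 (below, the 4 arrays), where it was 2 with Psmd5 (0.79, adjusted p = 0.025). Those 2 arrays were picked with their values known, Psmd5 is highest of the wild type arrays in the first and lowest of the ISR2 arrays in the second, and the alpha ring and regulatory particle differ in opposite directions on them, so the choice itself sets the direction in which values on the 4 arrays move. The count that fell was 2 and became 1 with median centring, 0 with all rows tested, 0 to 1 without 1 array at a time and 1 on the 4 arrays. Over all genes 356 rose and 246 fell. With array weights these were 630 and 638, at an adjusted p of 0.10 386 fell, and with all rows tested 106 fell. Without 1 array at a time 236 to 353 rose and 85 to 236 fell, and on the 4 arrays 472 rose and 303 fell. Leaving out arrays or testing all rows means fewer samples or more tests by construction; for the other settings the cause was not tested.

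With median centring the median change of all genes was -0.017, of all members 0.17 and of the Psm genes 0.16, and with quantile normalization that of all genes was -0.049. On the 4 arrays the medians were 0.093 for all members, -0.17 for the alpha ring, 0.27 for the ATPases, 0.49 for the non-ATPase subunits, -0.13 for assembly chaperones, -0.082 for activators and inhibitor, 0.30 for proteasome-associated factors, -0.091 for ubiquitin genes, 0.051 for degradation from the endoplasmic reticulum and 0.084 for the COP9 signalosome. Without 1 array at a time they ran from 0.088 to 0.12 for all members, from -0.051 to 0.15 for the alpha ring, from 0.028 to 0.12 for the constitutive beta ring, from 0.14 to 0.26 for the ATPases, from 0.20 to 0.42 for the non-ATPase subunits, from -0.070 to 0.076 for assembly chaperones, from -0.020 to 0.19 for proteasome-associated factors, from -0.075 to 0.12 for ubiquitin genes, from -0.064 to 0.036 for degradation from the endoplasmic reticulum, from -0.010 to 0.10 for the relatives and regulators of Nfe2l1, from -0.20 to 0.011 for the MHC class I and interferon list and from -0.10 to 0.040 for the COP9 signalosome. With array weights 1 proteasome-associated factor rose, the ubiquitin median was -0.0098 and that of the relatives of Nfe2l1 0.11. In the MHC class I and interferon list the count that rose was 2 on the 4 arrays and 1 to 2 without 1 array at a time. Its count of falls was 2 with array weights and 0 with median centring, with the mean of a gene's rows, with all rows tested, on the 4 arrays and without any 1 array.

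Signs turned for genes near 0. Psmb5 was at -0.079 without ISR2 replicate 2 and at -0.11 on the 4 arrays, and ran up to 0.18 without other arrays. Psmd13 was at 0.027 with median centring and ran from -0.061 to 0.023 without 1 array at a time. Psmb11 was at 0.11 with array weights. Nae1 was at -0.0098 with array weights, at -0.091 on the 4 arrays and from -0.075 to 0.22 without 1 array at a time. The looser motif TGANNNNGC was in 59.5% of member promoters and 45.8% of all genes with a promoter. Within 100 bases before the start, TGACNNNGC was in 7.14% and 6.28%.

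The replicate numbers were not taken as a pairing: same-numbered arrays deviated together with r of -0.02, 0.32 and 0.54 across genes, and wild type replicate 1 correlated best with ISR2 replicate 2 (0.20). With the replicate block 426 genes rose and 352 fell, and 1 member rose and 2 fell. The number of arrays limits the precision.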
